A study of Mus musculus with 6 samples.

Results

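Accessible chromatin at 10 genes of the Hippo pathway was examined in definitive endoderm treated or not with dTAG13, a molecule used here to degrade the tagged transcription factor OTX2. The genes were Tead1, Tead2, Tead3, Tead4, Yap1, Wwtr1, Lats1, Lats2, Amotl1 and Amotl2. A region counted as a member when the gene column of the authors' deposited table of ATAC-seq peaks gave one of these names. This gave 39 of the 70494 peaks, with 8 peaks at Tead1, 5 each at Tead3, Yap1 and Amotl1, 4 at Amotl2, 3 each at Tead4, Wwtr1 and Lats1, 2 at Tead2 and 1 at Lats2. Below, the peaks of a gene are numbered by rising position on build mm10.

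The Hippo pathway couples cell contact, polarity and tension to transcription. Its kinases LATS1 and LATS2 phosphorylate the coactivators YAP1 and WWTR1 (also called TAZ), which are then kept in the cytoplasm or degraded. Unphosphorylated YAP1 and WWTR1 enter the nucleus and bind DNA through the TEAD factors, since neither has a DNA-binding domain of its own. Angiomotin-like proteins such as AMOTL1 and AMOTL2 sit at cell junctions and hold the coactivators there, and Amotl2 is itself a frequently used target gene of YAP1. In the early embryo the pathway is known for separating trophectoderm from inner cell mass through TEAD4.

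Cells of 1 line, 7H OTX2-dTAG-EGFP, of BL6/129 hybrid background, were used in both groups. Their OTX2 carries a degradation tag and EGFP, so the DMSO controls also have the tagged protein. Mouse epiblast stem cells were taken for 16 h through 40 ng/ml Activin A and 3 uM CHIR, and then for 24 h through 100 ng/ml Activin A and 100 nM LDN. From the primitive streak stage on, 3 libraries had dTAG13 and 3 had its solvent DMSO, for 24 h each. Each library came from 50000 live sorted cells. The submitters describe the 3 libraries of a group as technical replicates of a sample, so the errors need not hold the spread between cultures, and all values come from 1 line.

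The table gives 1 mean, 1 fold change and 1 error per peak, and values per library were not used here. Depth per library is not given in the sources used here. All 10 definitive endoderm genes looked up (Sox17, Foxa2, Foxa1, Cxcr4, Gata4, Gata6, Gsc, Cer1, Hhex and Eomes) had peaks, 9 of them at a start site. Peaks were also assigned to 5 of 5 epiblast, 4 of 5 mesoderm (Hand2 had none) and 3 of 3 neural genes, so the presence of peaks did not separate these identities. Some marker peaks were called between the groups, with 3 of 53 endoderm peaks lower in dTAG13, 2 of 11 epiblast peaks lower and 1 higher, 1 of 11 neural peaks higher and 0 of 9 mesoderm peaks called. Their part in the results at the Hippo genes was not tested. No peak was assigned to Otx2, and accessibility does not measure loss of the protein.

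A change was called at 1 of the 39 Hippo gene peaks. A region in intron 4 of Yap1 had 2.17-fold more signal in dTAG13. No member peak was called lower. Of the 15 promoter peaks 0 were called. Calls are rare at promoters, with 181 lower and 241 higher among all 20273 promoter peaks with an adjusted p. In 15 peaks, 0 calls is therefore no result about these genes. Values at 4 of the 15 (Yap1 peak 5, Wwtr1 peak 1, Lats1 peak 1 and Amotl2 peak 2) were positive with unadjusted 95% intervals above 0. The other promoter peaks of Lats1 and Amotl2 had values of -0.19 and 0.07. Over the 15, 7 values were positive and 8 negative, with a median log2 fold change of -0.12. Among all promoter peaks, 12.3% had an unadjusted p under 0.05 in the authors' deposited table. No peak of Tead1, Tead2, Tead3, Tead4 or Lats2 was called.

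A peak is said to be called when its adjusted p in the authors' deposited table is under 0.05, with no limit on size. The authors' own enriched lists are smaller, with 2599 peaks lower and 882 higher, and equal this rule plus a change of 1 or more on the log2 scale. Among all 69128 peaks with an adjusted p, the share called lower in dTAG13 was 3.79%, the share called higher was 1.47%, and both together made 5.26%. All 39 member peaks had an adjusted p, so the 0 lower and 1 higher calls among them are close to what these shares amount to in 39 peaks and set the list apart in neither direction. At an unadjusted p under 0.05 the authors' deposited table held 8 member peaks (20.5%), against 19.7% of all peaks. Of these 8, 6 had positive and 2 negative values, while among all such peaks 4938 were positive and 8965 negative. Of the 8965, 7648 were found in the DMSO group's peak list alone. Such peaks found in both groups' lists were positive in 2160 cases and negative in 1317. Among the 8 member peaks, 5 were in both lists, 2 in the DMSO list alone and 1 in the dTAG13 list alone.

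At the member peaks, log2 fold changes (dTAG13 over DMSO) ranged from -4.19 to 1.79 in the authors' deposited table, with a median of -0.06 against -0.18 for all peaks. Positive values were found at 19 peaks and negative ones at 20. Since the median of all peaks is itself below 0, moving it to 0 gave 22 positive and 17 negative member peaks, while setting to 0 the median (0.09) of those peaks that both groups' lists hold gave 16 and 23. The balance of signs over the 39 peaks therefore depends on the zero point. So does the balance of calls over all peaks, with 2622 lower and 1016 higher as deposited. It was 2056 and 1958 with the median of all peaks at 0, and 3159 and 790 with that of peaks in both lists at 0. With peaks split into 10 groups by GC content (GC deciles) and each group's median at 0, it was 1380 and 2254.

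**Figure D1:**
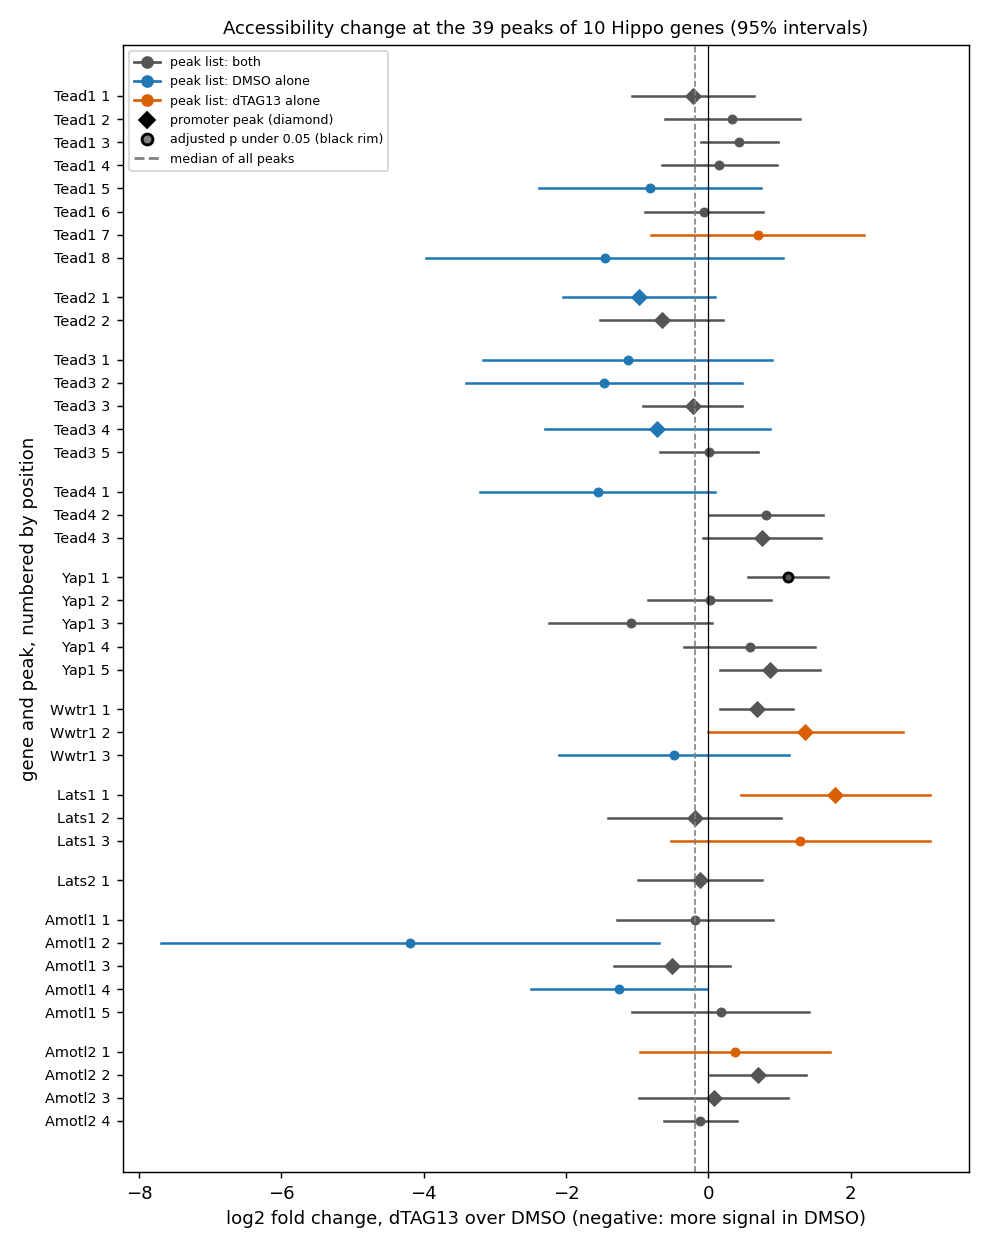
Log2 fold changes of dTAG13 over DMSO (x axis) at each of the 39 peaks (y axis), with 95% intervals from the authors' standard errors. Yap1 peak 1 carries the black rim of a call. The 4 promoter peaks (diamonds) whose intervals exclude 0, at Yap1, Wwtr1, Lats1 and Amotl2, lie to the right and are uncalled. Of all 15 diamonds, 7 lie to the right of 0 and 8 to the left.

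Member peaks were stronger than most. Their mean normalized counts, by the column's name read counts scaled for library size and averaged over the libraries, had a median of 14.1 (1.97 to 51.6) in the authors' deposited table, against 7.33 for all peaks. The median standard error (SE) was 0.53 against 0.73. A call needed a fold change of at least 3.01 times its error, the smallest such ratio among called peaks. At that ratio, a log2 change of 1 could have been called at 4 of the 39 peaks, and a change of 2 at 26. Uncalled peaks are thus not shown to be unchanged.

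**Figure D2:**
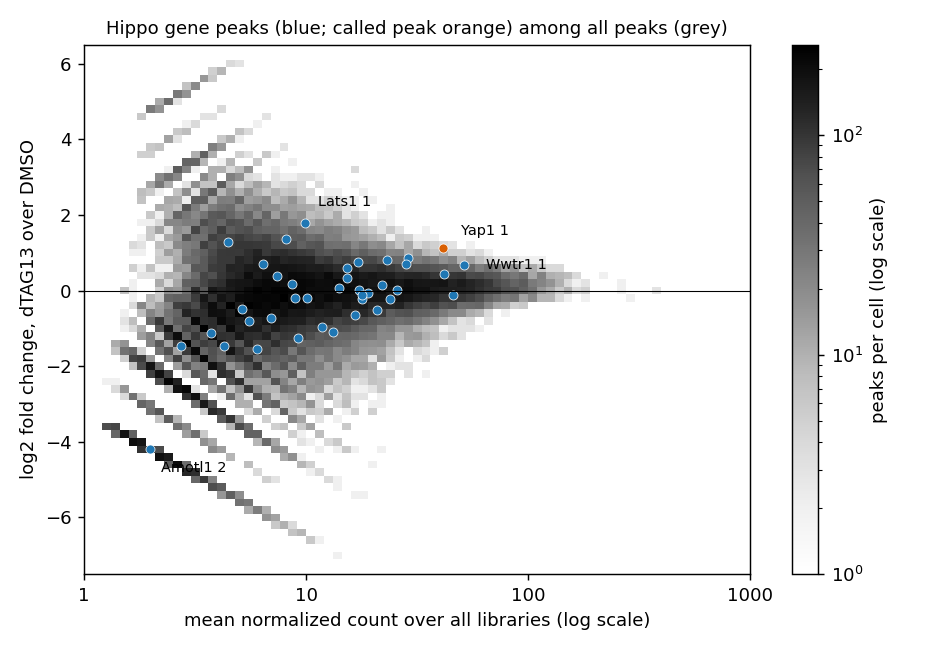
Log2 fold change (y axis) against mean normalized count (x axis, log scale) for all peaks (grey, darker where more peaks fall) and the 39 Hippo gene peaks (blue, the called one orange). Yap1 peak 1, at a mean of 41.4, lies well above 0, and Amotl1 peak 2 lies on the lowest streak of weak peaks with hardly any signal in dTAG13.

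The coactivator genes held the call. Yap1 peak 1 lies at chr9:7958174-7958547, in intron 4 of 7 per the authors' annotation, 46.2 kb downstream of the first start site of the gene, which is read from the minus strand. Its mean normalized count was 41.4 in the authors' deposited table. Means per group are not in the table. They were computed from its mean and fold change, on the assumption that the mean over all libraries is the average of both groups, and came to 26.1 in DMSO and 56.6 in dTAG13. The log2 fold change was 1.12 (SE 0.29, 95% interval 0.56 to 1.68, adjusted p 0.0068) in the authors' deposited table. The peak is among the 882 of the authors' dTAG13-enriched list, and it was found in the pooled peak lists of both groups. The gene name rests on the authors' assignment, because the nearest start site in GENCODE, 7477 bases away, is that of the gene model Gm20416.

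A second peak in the same intron, Yap1 peak 2, lies 839 bases from the end of peak 1. It had computed means of 17.3 in DMSO and 17.5 in dTAG13. Its log2 fold change in the authors' deposited table was 0.02 (SE 0.44, 95% interval -0.84 to 0.89). The intervals of these neighbours overlap, and their difference was not tested.

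The DNA of both intron 4 peaks is shown because the called one holds the consensus GGATTA, the sequence bound by OTX2 and related homeodomain proteins. Bases are those of the plus strand of GRCm38.p6, the assembly behind mm10. Peak 1 is cut to the 300 bases around its midpoint, and capitals mark matches to GGATTA or its complement TAATCC.
Yap1 peak 1, chr9:7958211-7958510: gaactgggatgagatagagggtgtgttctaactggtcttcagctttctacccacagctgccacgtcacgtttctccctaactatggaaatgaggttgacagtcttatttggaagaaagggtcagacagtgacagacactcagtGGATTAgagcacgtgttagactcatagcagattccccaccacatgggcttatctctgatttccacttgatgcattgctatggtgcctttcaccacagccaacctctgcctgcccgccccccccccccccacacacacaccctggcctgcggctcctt
Yap1 peak 2, chr9:7959387-7959563: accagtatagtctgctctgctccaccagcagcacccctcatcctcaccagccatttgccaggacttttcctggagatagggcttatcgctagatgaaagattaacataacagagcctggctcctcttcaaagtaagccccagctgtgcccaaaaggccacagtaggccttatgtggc

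In peak 1 the match centres 4 bases from the midpoint, and peak 2 has none. A match on either strand within 100 bases of the midpoint was found in 6209 of all 70494 peaks (8.81%). Those called lower in dTAG13 numbered 894 and those called higher 13, Yap1 peak 1 being one of the 13. The match is a description of letters and not evidence of binding.

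The remaining Yap1 peaks were uncalled and did not share a direction. Peak 5, at the promoter (chr9:8004535-8004907), had computed means of 20.3 in DMSO and 37.0 in dTAG13, and a log2 fold change of 0.87 (SE 0.36, 95% interval 0.17 to 1.56, adjusted p 0.132) in the authors' deposited table. Its midpoint lies 125 bases upstream of a Yap1 start and 109 bases from that of the non-coding Gm45494, so both starts lie near it. Peak 4, 4.85 kb into the gene and annotated by the authors as a promoter (1-2kb), had computed means of 12.2 in DMSO and 18.3 in dTAG13. Peak 3, in intron 2, went the other way, with computed means of 18.1 in DMSO and 8.47 in dTAG13 (log2 fold change -1.09, standard error 0.58, adjusted p 0.284 in the authors' deposited table). All 5 Yap1 peaks were found in both groups' peak lists.

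**Figure D3:**
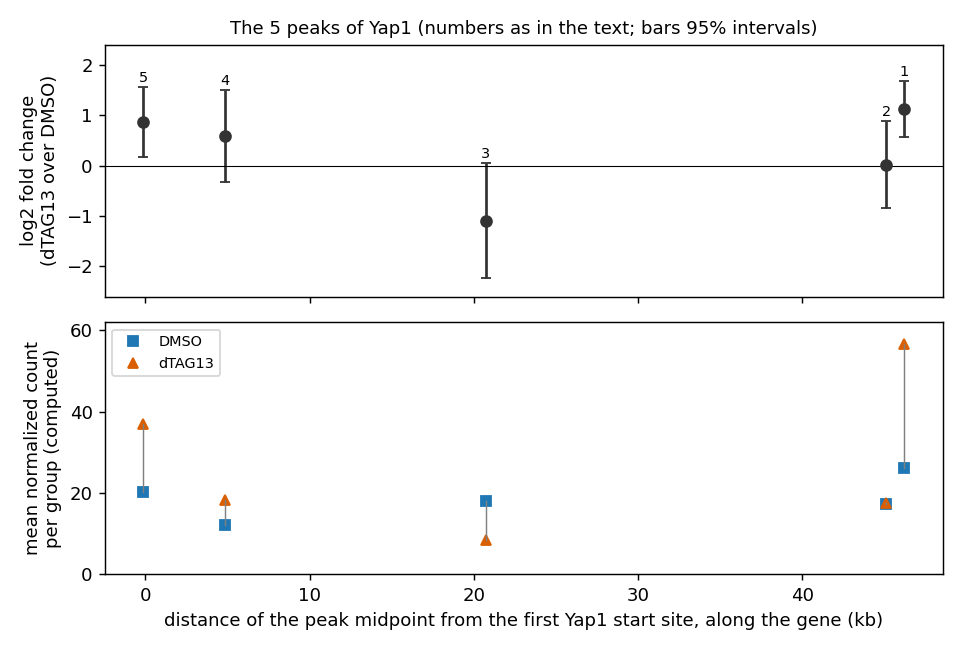
Log2 fold change with 95% interval (upper panel) and computed mean normalized count in DMSO and dTAG13 (lower panel) of the 5 Yap1 peaks, against their distance from the first start site along the gene in kb. Only peak 1, at 46.2 kb, is called, and peak 2 beside it has nearly equal means of 17.3 and 17.5.

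Wwtr1 encodes TAZ, the paralog of YAP1. Its peak 1, over the start site (chr3:57575757-57576060), was the strongest of all member peaks, with a mean normalized count of 51.6, and also per length, with 17.0 per 100 bases. The computed means were 39.7 in DMSO and 63.5 in dTAG13. The log2 fold change was 0.68 (SE 0.26, 95% interval 0.17 to 1.19, adjusted p 0.101) in the authors' deposited table, which is not a call. It became one, with an adjusted p of 0.0273, only when the median fold change of all peaks was moved to 0. Peak 2, whose midpoint lies 697 bases upstream, had computed means of 4.55 in DMSO and 11.7 in dTAG13 and was found in the dTAG13 list alone (log2 fold change 1.36, standard error 0.70, adjusted p 0.259 in the authors' deposited table). The distal peak 3, 7854 bases upstream, had means of 6.02 in DMSO and 4.30 in dTAG13 and was found in the DMSO list alone. Taking both genes, 6 of 8 coactivator peaks had positive values, 1 of them called. The 6 include Yap1 peak 2, at a log2 fold change of 0.02. Positive values made up 41.8% of all peaks and 57.8% of all peaks found in both lists, so nothing is read from this count.

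Of the TEAD genes, which encode the DNA-binding partners, 18 peaks were measured and 0 were called, with 7 positive and 11 negative values and a median log2 fold change of -0.22 in the authors' deposited table. The smallest adjusted p was 0.245. The sign of the values varied within Tead1, Tead3 and Tead4, while both values of Tead2 were negative.

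Tead1 had the most peaks of the 10 genes, spread over 187 kb of the gene. Its promoter peak 1 (chr7:112679261-112679427) had computed means of 19.1 in DMSO and 16.5 in dTAG13, and its strongest, peak 3 (chr7:112743639-112743988), near an internal start site, 35.4 and 48.0. The log2 fold changes of these peaks in the authors' deposited table were -0.21 (SE 0.44) and 0.44 (standard error 0.28, adjusted p 0.390). The 5 Tead1 peaks found in both lists lay between -0.21 and 0.44. Wider values were given for weak peaks only, up to 0.69 at peak 7 (dTAG13 list alone) and down to -1.46 at peak 8 (DMSO list alone), whose mean normalized count was 2.74.

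Both peaks of Tead2, a TEAD gene known for early embryonic expression, lay at its promoter and had more signal in DMSO. Peak 1 (chr7:45215670-45215796) had computed means of 15.6 in DMSO and 7.94 in dTAG13, a log2 fold change of -0.97 (SE 0.55, 95% interval -2.04 to 0.09, adjusted p 0.314) in the authors' deposited table. Peak 2 (chr7:45216654-45216781) had 20.3 and 12.8, or -0.66 (standard error 0.44, adjusted p 0.424). Neither interval excludes 0.

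Tead3 had 4 negative values among 5 peaks. Its promoter peak 3 (chr17:28350896-28351120) had computed means of 25.6 in DMSO and 22.0 in dTAG13, with a log2 fold change of -0.22 (standard error 0.36, adjusted p 0.784) in the authors' deposited table. Peak 5, 1408 bases upstream, was the most even of all 39, with means of 25.6 and 25.8 and a log2 fold change of 0.01 (95% interval -0.67 to 0.70). The more negative values, down to -1.47 in intron 1, belonged to peaks found in the DMSO list alone, with computed means under 3 in dTAG13 at peaks 1 and 2.

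Tead4, the gene of the trophectoderm factor, had positive values near its start and a negative one inside the gene. Peak 2 (chr6:128298536-128298764) had computed means of 16.8 in DMSO and 29.6 in dTAG13, a log2 fold change of 0.82 (SE 0.41, 95% interval 0.01 to 1.62, adjusted p 0.245) in the authors' deposited table. The promoter peak 3 (chr6:128300424-128300623) had 12.8 and 21.5, or 0.75 (standard error 0.42, adjusted p 0.316). In intron 2, peak 1 had 8.96 in DMSO and 3.05 in dTAG13 and was found in the DMSO list alone (log2 fold change -1.55, standard error 0.84, adjusted p 0.295 in the authors' deposited table).

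The LATS kinase genes had few peaks. Lats1 peak 1 (chr10:7681599-7681726), 449 bases downstream of the start site, gave the most positive value of the 39 and the smallest adjusted p without a call. Its computed means were 4.42 in DMSO and 15.2 in dTAG13, with a log2 fold change of 1.79 (SE 0.68, 95% interval 0.46 to 3.11, adjusted p 0.0957) in the authors' deposited table. It was found in the dTAG13 list alone. Only 107 bases further, peak 2 had even means of 9.52 and 8.33 (log2 fold change -0.19, SE 0.62, in the authors' deposited table) and was found in both lists. Peak 3, in intron 2, had means of 2.56 in DMSO and 6.29 in dTAG13, a level at which its value of 1.30 (SE 0.93) is not well determined.

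The 128 bases of Lats1 peak 1 are shown as the region with the largest positive value. They hold neither GGATTA nor the TEAD consensus GGAATG on either strand.
Lats1 peak 1, chr10:7681599-7681726: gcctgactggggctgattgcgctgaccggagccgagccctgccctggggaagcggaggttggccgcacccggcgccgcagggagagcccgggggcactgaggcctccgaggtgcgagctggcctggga

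The single Lats2 peak, at its promoter (chr14:57746081-57746260), had computed means of 18.6 in DMSO and 17.1 in dTAG13. Its log2 fold change was -0.12 (SE 0.44, 95% interval -0.99 to 0.75, adjusted p 0.913) in the authors' deposited table. The 4 kinase peaks had 2 positive and 2 negative values. Their median of 0.59 falls in the gap between 1.30 at Lats1 peak 3 and -0.12 at Lats2, near no peak's value.

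The angiomotin-like genes had 9 peaks, of which 0 were called, and each gene had values of both signs. Amotl1 had 4 negative values among 5 peaks. Its promoter peak 3 (chr9:14614945-14615129) had computed means of 24.4 in DMSO and 17.2 in dTAG13, with a log2 fold change of -0.51 (standard error 0.42, adjusted p 0.531) in the authors' deposited table. Peak 2, near the end of the gene, had the most negative value of the 39, -4.19 (standard error 1.78, adjusted p 0.147) in the authors' deposited table, but at computed means of only 3.74 in DMSO and 0.205 in dTAG13. Set against a floor of 3 normalized counts per library in dTAG13, the computed DMSO mean is 1.25-fold higher. That mean is itself near the floor, and the peak was not called.

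Amotl1 peak 4 (chr9:14623988-14624191) had computed means of 13.0 in DMSO and 5.45 in dTAG13, with a log2 fold change of -1.25 (SE 0.63, 95% interval -2.49 to -0.02, adjusted p 0.246) in the authors' deposited table. It was found in the DMSO list alone, and its nearest start site, 4525 bases away, is that of 4930584E12Rik. Besides Yap1 peak 1 it is the other member peak with GGATTA within 100 bases of its midpoint, which makes 2 of 39 (5.13%, against 8.81% of all peaks). These 2 peaks have values of opposite sign. The sequence is shown for this match (TAATCC on the plus strand) and for the TEAD consensus beside it (CATTCC), both in capitals.
Amotl1 peak 4, chr9:14623988-14624191: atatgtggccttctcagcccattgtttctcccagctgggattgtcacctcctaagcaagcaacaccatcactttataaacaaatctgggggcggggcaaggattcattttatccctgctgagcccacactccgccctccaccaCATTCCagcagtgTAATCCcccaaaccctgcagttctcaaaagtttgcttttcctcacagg

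Amotl2 had 3 positive values among 4 peaks. Peak 2, at its promoter (chr9:102717579-102717853), had computed means of 21.4 in DMSO and 34.7 in dTAG13, with a log2 fold change of 0.70 (SE 0.35, 95% interval 0.02 to 1.38, adjusted p 0.239) in the authors' deposited table. Peak 4, 9.61 kb into the gene, is annotated by the authors as a promoter (1-2kb). It was the strongest Amotl2 peak and nearly even, with means of 47.5 and 44.0 (log2 fold change -0.11, SE 0.26, 95% interval -0.62 to 0.40). At peak 3 the means were 13.7 and 14.4, and at peak 1, upstream of the gene, 6.45 and 8.39.

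Promoter peaks, whose midpoint lies within 1000 bases of a GENCODE start site, made up 15 of the 39 member peaks (38.5%, against 28.9% of all peaks), with at least 1 at each of the 10 genes. None was called. Their median log2 fold change was -0.12 in the authors' deposited table, against 0.04 for all 20346 promoter peaks, and 7 were positive. An unadjusted p under 0.05 was given for 4 of the 15, at Yap1, Wwtr1, Lats1 and Amotl2, all positive. Among all promoter peaks this was 2508 (12.3%), of which 1561 were positive. The 24 other member peaks had a median of -0.02, against -0.37 for all other peaks. These sets also differ in median mean count (9.65 against 5.85) and median GC content (53.9% against 52.3%). Peaks of the DMSO list alone made up 33.3% against 48.2%. Whether these traits account for the gap was not tested.

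Promoter peaks of these genes often held the TEAD consensus. GGAATG, or its complement CATTCC, the core of the MCAT element bound by TEAD factors, lay no more than 100 bases from the midpoint in 7 of the 15 member promoter peaks (46.7%). Among all promoter peaks, it occurred in 1518 of 20346 (7.46%). The reversed letters GTAAGG, of the same base composition, were found in 0 of 15 and in 4.80% of all promoter peaks. Member promoter peaks had a median GC content of 68.7%, against 65.0%. The share is a description of 15 regions of 10 genes picked as a pathway, and no test was made of it.

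The 7 promoter peaks with the consensus belong to 7 genes, Tead1, Tead3, Tead4, Yap1, Wwtr1, Lats2 and Amotl2. Sites are shown as 30 bases of the plus strand of GRCm38.p6, with capitals marking each match, so that the repeats in Tead1, Tead4 and Wwtr1 can be seen.
Tead1 peak 1, chr7:112679337-112679366: tcatttCATTCCtgtcctCATTCCgcacat
Tead3 peak 3, chr17:28350970-28350999: tcccgcgcacccCATTCCtcgctcgtcgtc
Tead4 peak 3, chr6:128300456-128300485: aGGAATGcacGGAATGggcgctGGAATGag
Yap1 peak 5, chr9:8004720-8004749: tgcgcgtcgctaCATTCCtgcagactcccg
Wwtr1 peak 2, chr3:57576570-57576599: agtgggaggattGGAATGtccctgggtcgc
Wwtr1 peak 2, chr3:57576606-57576635: gagcctggaactGGAATGgaacaggggcag
Lats2 peak 1, chr14:57746102-57746131: ctacattgttggCATTCCacgggcgtcacg
Amotl2 peak 2, chr9:102717727-102717756: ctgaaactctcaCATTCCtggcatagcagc

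Tead4 held 3 matches within 30 bases, and Tead1 and Wwtr1 held 2 each. The windows of the promoter peaks of Tead2, Lats1 and Amotl1 had none. Wwtr1 peak 1 has a match outside the window, which is shown with the Yap1 promoter, each upstream of the start site.
Wwtr1 peak 1, chr3:57575911-57576060: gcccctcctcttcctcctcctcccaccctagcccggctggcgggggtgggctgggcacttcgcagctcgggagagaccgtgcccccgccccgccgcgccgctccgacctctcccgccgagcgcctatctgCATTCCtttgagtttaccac
Yap1 peak 5, chr9:8004597-8004829: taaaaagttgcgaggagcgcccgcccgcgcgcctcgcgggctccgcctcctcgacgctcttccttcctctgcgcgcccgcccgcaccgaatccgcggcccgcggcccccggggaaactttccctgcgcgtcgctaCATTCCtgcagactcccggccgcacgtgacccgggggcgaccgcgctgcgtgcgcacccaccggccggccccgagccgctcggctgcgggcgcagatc

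Away from promoters, 4 of 24 member peaks held GGAATG (16.7%), close to the 13.2% of all other peaks. These were Tead1 peaks 4 and 7, Amotl1 peak 4 and Amotl2 peak 1. None of the 11 member peaks with the consensus, promoter or not, was called. Their median log2 fold change was 0.38, with 7 positive and 4 negative values, in the authors' deposited table, against -0.09 for all 8142 peaks with the consensus. Of those 8142 peaks, 247 were called lower and 231 higher. The 11 member peaks differ from them in other traits. Promoter peaks made up 63.6% against 18.6%, and the median mean count was 17.8 against 6.52. Peaks of the dTAG13 list alone made up 27.3% against 17.8%, and those of the DMSO list alone a smaller share than among the 8142. The part of these traits in the gap between the medians was not tested.

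**Figure D4:**
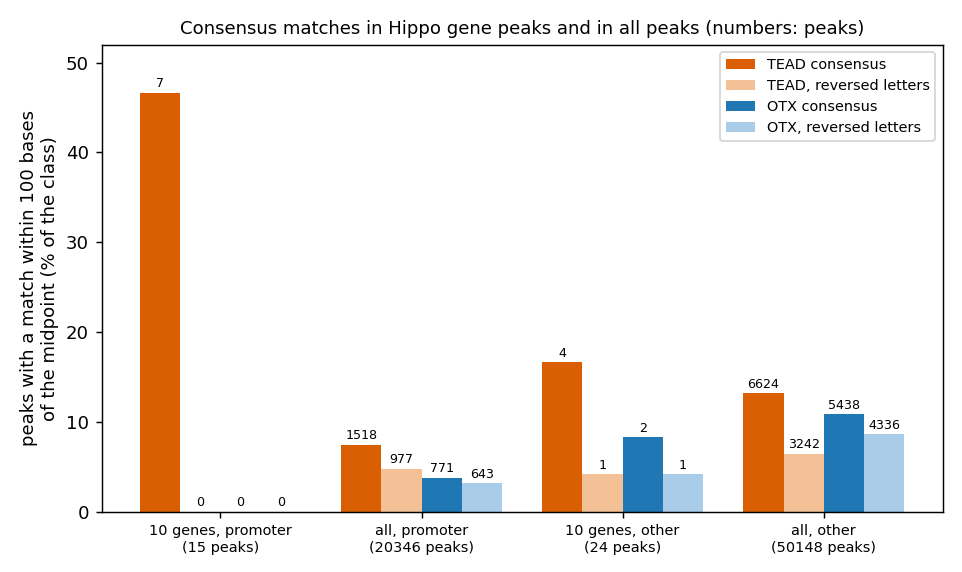
Share of peaks (y axis, %) with the TEAD or OTX consensus, or its reversed letters, within 100 bases of the midpoint, for promoter and other peaks of the 10 genes and of the whole table. Numbers over the bars count peaks. The TEAD consensus is in 7 of 15 promoter peaks of the 10 genes and in 1518 of all 20346.

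Peak lists called on the pooled libraries of each group gave the same mixed picture. Of the 39 member peaks, 24 (61.5%) overlapped both lists by at least 1 base, 10 (25.6%) the DMSO list alone and 5 (12.8%) the dTAG13 list alone. For all peaks the shares were 48.2%, 40.1% and 11.8%. The dTAG13 list alone held Lats1 peaks 1 and 3, Wwtr1 peak 2, Tead1 peak 7 and Amotl2 peak 1. All 10 peaks of the DMSO list alone had negative values and all 5 of the dTAG13 list alone positive ones, but the lists come from the same libraries as the fold changes and are no separate evidence.

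Marks in the table for genes that went down or up, whose origin is not stated, were carried by 2019 and 2120 of all 70494 peaks and by 0 member peaks each. In a list of 39 peaks nothing is read from this.

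In the rest of the pathway, 35 further genes were looked up and 34 had peaks, the cofactor gene Vgll1 being the exception. Of their 142 peaks 5 were called lower and 1 higher in dTAG13 (4.23%, against 5.26% of all peaks), with a median log2 fold change of -0.08 in the authors' deposited table. Core kinases and scaffolds had 1 lower call among 26 peaks, upstream and junction proteins 2 lower and 1 higher among 77, TEAD cofactors 1 lower among 19, and YAP1 target genes 1 lower among 23. Ajuba counts both as a junction protein and as a target.

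The smallest adjusted p among them was at the proliferation factor gene Myc, at an intergenic peak (chr15:61993202-61993510) with computed means of 24.4 in DMSO and 3.20 in dTAG13. Its log2 fold change was -2.93 (standard error 0.67, adjusted p 0.00215) in the authors' deposited table, and it holds the TEAD consensus. A distal peak assigned to Vgll3, the gene of a TEAD cofactor, had 28.2 in DMSO and 6.91 in dTAG13 (log2 fold change -2.03, standard error 0.49, adjusted p 0.00385 in the authors' deposited table). Its nearest start site, 21446 bases away, is that of Gm5221.

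Peaks assigned to Wwc1, which encodes the LATS activator KIBRA, and to Stk3, which encodes the kinase MST2, averaged under 3 normalized counts in dTAG13. The authors annotated the Wwc1 peak as a promoter (1-2kb), while its nearest start site in the GENCODE set used here is that of Rars, 39551 bases away. It carries the mark for a gene that went down. Against that floor per library the Wwc1 and Stk3 peaks were at least 2.22-fold and 3.97-fold higher in DMSO (adjusted p 0.0224 and 0.0288 in the authors' deposited table). Calls at the edge of the threshold, with an adjusted p of 0.04999 each, were given for Dlg5, a polarity scaffold gene (log2 fold change -0.81, SE 0.27, outside the authors' enriched list), and for Dchs1, a protocadherin gene (2.22, SE 0.74), whose peak lies in an intron of another annotated gene, in the authors' deposited table. The YAP1 target genes looked up other than Myc had no call. Among them were Ccn1 and Ccn2, listed under their older names Cyr61 and Ctgf. Nf2, Sav1 and Amot had no call either. The uncalled peaks of these genes are likewise not shown to be unchanged.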

How the data were processed

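ATAC-seq was made on 6 libraries of mouse definitive endoderm, 3 with DMSO and 3 with dTAG13. Per the submitters' processing notes, fastp, Bowtie2, MACS2, featureCounts, HOMER 4.11 and ChIPseeker were used on mm10, with no roles given. The signal in the deposited table is a mean over all libraries of normalized counts, and the log2 fold change (above 0 where dTAG13 has more signal), its error and the p-value and adjusted p-value were taken as the authors deposited them. The deposited score is the log2 fold change divided by its error, with a largest difference of 8.72e-07. Benjamini-Hochberg adjustment of 69128 deposited p-values gave the deposited adjusted ones to within 7.87e-06. The p-values are the authors' own, from a test not named in the sources used here, and the threshold of 0.05 on the adjusted p was set here. The deposited enriched lists also need a change of 1 or more on the log2 scale.

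Intervals (95%) are normal intervals from the deposited errors. Start sites (77200) came from the basic set of GENCODE mouse release M21. Windows of 100 bases on each side of a peak's midpoint were searched on both strands for GGATTA and GGAATG, in GRCm38.p6, within whose chromosome ends all peaks lie. The functions were tested on simulated data. The members and gene lists were chosen with earlier results of these data known. All 10 genes were named, each with its called peaks, its strongest promoter peak, its strongest peak, the peak of smallest p and its extreme values. Other peaks and the sequences of Lats1 peak 1, Amotl1 peak 4, Yap1 peaks 2 and 5 and the 30-base sites were chosen after their values were seen. RefSeq promoters were not used. Alternatives covered the zero point, the filter on weak peaks, thresholds, gene assignment, overlap, motif window and promoter distance. Python 3.11.15, numpy 2.4.6, pandas 2.3.3, scipy 1.17.1 and pyfaidx 0.9.0.4 were used.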

Additional observations from a re-analysis of the deposited data

How the results depend on the processing

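No paired analysis was possible because the deposited table has 1 mean and 1 fold change per peak and no values per library; for the same reason no other count test was run and no replicate was left out. The count of 0 member peaks called lower held under all 9 alternatives, and the single higher call held under 6 of them. It became 2 with the median of all peaks at 0 (Wwtr1 peak 1 joins) and with an adjusted p under 0.1 (Lats1 peak 1 joins), and 0 when peaks took the gene of the nearest start site, since Yap1 peak 1 then belongs to Gm20416. Yap1 peak 1 itself stayed called under all 5 settings that refit its adjusted p or zero point. Signs turned only at uncalled peaks, and only under another zero point: with the median of all peaks at 0, Tead1 peak 6 (0.122), Lats2 peak 1 (0.061) and Amotl2 peak 4 (0.0692); with the median of each GC decile at 0, Tead1 peak 6 (0.0224), Wwtr1 peak 3 (0.129) and Amotl1 peak 1 (0.149); with the median of peaks in both lists at 0, Tead3 peak 5 (-0.0818), Yap1 peak 2 (-0.0728) and Amotl2 peak 3 (-0.0192). These turns follow from the shift of the zero point. Within 50 bases of the midpoint, 1 member peak held GGATTA, and 10 held GGAATG, against 2 and 11. The reversed letters ATTAGG and GTAAGG were in 1 member peak each. The counts for peak lists and promoters stayed within 1.5 times. A log2 change of 2 could have been called at 26 of the 39 peaks, and read depth per library is not given in the sources used here.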
